A study of Mus musculus with 5 samples.

Results

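JunB binding sites that were found in young muscle stem cells (MuSCs) and had no peak in aged MuSCs were described. Overlapping or adjoining peaks of 3 young JunB libraries were joined, which gave 10376 regions on chromosomes 1 to 19 and X. Of these, 4632 held a peak of at least 2 of the 3 young libraries and are called reproducible young regions. A reproducible young region was kept when no peak of the aged JunB library shared a base with it. This left 947 of the 4632 reproducible young regions (20.4%), named young-only sites here, and 3685 regions that also held an aged peak, named shared sites. Young-only sites were thus selected on the measured peaks of both ages, so their lack of an aged peak is the selection itself and was not tested.

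The series holds 5 CUT&RUN-seq peak lists of freshly isolated mouse MuSCs. In this assay an antibody directs a nuclease to release the DNA next to the bound protein for sequencing. A JunB antibody was used for 3 libraries of young mice (biological replicates 1 to 3) and 1 library of aged mice, and an H3K27ac antibody for 1 further library, whose mice have no age in the labels. No treatment is labelled for any of the samples, although the design text of the series names mice given DMSO or MVC. The study's methods name C57BL/6 for its aged mice, give no strain for the young ones, and sort MuSCs as VCAM-positive cells free of CD31, CD45 and SCA1. The age in months, the sex and the number of mice pooled per library are not given in the labels. In the study's supplementary peak sheet, as far as it was read here, the headings young and aged are exchanged relative to the lists deposited for young replicate 1 and the aged mice. The number of aged JunB sites that the study's text gives is, however, the length of the list labelled aged, as the labels have it. Its number of young sites is the length of none of the 3 young lists, nor the number of joined young regions. The labels of the deposited samples were followed throughout.

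JunB is a member of the AP-1 family of transcription factors, which bind DNA as dimers of Jun, Fos and related proteins at the motif TGACTCA or TGAGTCA. AP-1 proteins are induced by stress, growth signals and tissue dissociation, and many of their sites are enhancers, far from a transcription start site (TSS). H3K27ac is an acetylation of histone H3 found at active promoters and enhancers. MuSCs are the quiescent, Pax7-expressing stem cells of skeletal muscle that activate, divide and fuse to repair it after injury.

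The motif was present at many of the strongest young-only sites. The lines below give 61 bases of the forward strand around the AP-1 motif nearest to the summit, from RefSeq's sequence of GRCm38.p6, the assembly that mm10 names, with the motif in capitals. The first 5 belong to the strongest sites of all, the next 5 to strong sites that overlapped H3K27ac, the next 2 to introns of Pax7 and the last 3 to sites nearest to genes of stress response and stem cell quiescence. Each line carries the name of the nearest protein-coding gene.
Tas1r2, chr4:139716566-139716626: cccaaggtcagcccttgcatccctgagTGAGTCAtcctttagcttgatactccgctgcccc
Tent4a, chr13:69447310-69447370: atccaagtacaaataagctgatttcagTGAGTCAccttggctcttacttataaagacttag
Prdx1, chr4:116679347-116679407: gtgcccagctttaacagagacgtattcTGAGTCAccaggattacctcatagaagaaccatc
Uts2, chr4:150973403-150973463: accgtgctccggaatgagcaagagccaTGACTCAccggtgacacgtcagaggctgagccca
Ntf3, chr6:126035754-126035814: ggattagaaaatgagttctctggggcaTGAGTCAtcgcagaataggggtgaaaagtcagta
Plk3, chr4:117131338-117131398: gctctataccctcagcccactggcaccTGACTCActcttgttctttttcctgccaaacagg
Chrna1, chr2:73580516-73580576: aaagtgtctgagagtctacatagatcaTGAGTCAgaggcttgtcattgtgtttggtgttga
Shroom3, chr5:92856712-92856772: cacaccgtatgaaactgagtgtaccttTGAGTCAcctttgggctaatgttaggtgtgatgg
Creb5, chr6:53234062-53234122: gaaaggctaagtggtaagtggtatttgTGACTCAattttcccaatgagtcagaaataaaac
Dmrt2, chr19:25654213-25654273: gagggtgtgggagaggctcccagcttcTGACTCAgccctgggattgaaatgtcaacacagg
Pax7, chr4:139751982-139752042: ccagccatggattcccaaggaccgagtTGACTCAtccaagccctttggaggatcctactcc
Pax7, chr4:139805084-139805144: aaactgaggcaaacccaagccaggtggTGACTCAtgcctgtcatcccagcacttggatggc
Gadd45a, chr6:66987791-66987851: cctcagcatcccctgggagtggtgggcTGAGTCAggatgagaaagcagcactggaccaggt
Sgk1, chr10:21853704-21853764: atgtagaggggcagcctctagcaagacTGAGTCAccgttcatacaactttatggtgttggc
Heyl, chr4:123226077-123226137: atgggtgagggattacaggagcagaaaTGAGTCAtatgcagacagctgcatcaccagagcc

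Sites were printed only where the motif lay within 300 bp of the summit, a window that can reach past the called site. At Shroom3 the printed motif lies beyond the end of the site, and at Plk3 it runs over the end. Among the 26 sites named by rank, described further on, 17 held it within 300 bp of the summit of their strongest young peak and 0 held it within 50 bp. The motif lay beside the called summits at these sites and not on them.

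Over all sites, the AP-1 motif was about as frequent at young-only as at shared sites and far more frequent than next to them. It was found within 300 bp of the summit at 564 of 947 young-only sites (59.6%, exact 95% binomial interval 56.4 to 62.7%) and at 2067 of 3685 shared sites (56.1%, 54.5 to 57.7%). Windows of the same length centred 2 kb to each side held it in 11.1% of cases around young-only sites. The share at the sites was thus 5.35 times that of their surroundings, against 5.26 times for shared sites. The same windows held it at 7.44% of the TSSs of 21755 protein-coding genes and at 9.72% of the summits of 31527 H3K27ac peaks without a JunB peak. Such intervals, here and below, cover counting error of regions only. The window of 300 bp was chosen after the position of the motif was seen, and a window of 50 bp, the first choice, gave 7.81% of young-only and 5.51% of shared sites.

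By bins of 50 bp, the motif was in 3.06% of young-only sites at the summit itself, in 10.9% at 150 bp before it and in 12.0% at 200 bp after it along the forward strand. It dropped to 0.845% at 300 bp before and 0.95% at 300 bp after the summit. Shared sites had a similar outline, with 2.99% at the summit, 10.3% at 150 bp before it and 10.6% at 200 bp after it. The copy nearest to the summit lay a median of 135 bp away in the 564 young-only sites that had one and 145 bp away in the 2067 shared sites. A single copy was found at 375 young-only sites and 2 or more at 189.

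**Figure D1:**
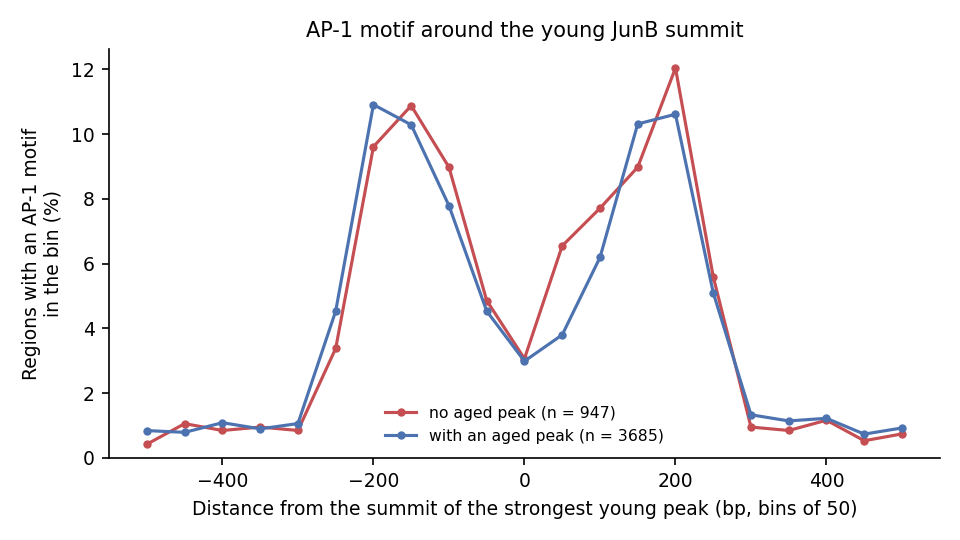
Share of regions (%) with an AP-1 motif in each bin of 50 bp, against the distance in bp from the summit of the strongest young JunB peak, for young-only (red) and shared (blue) sites. Both lines dip to about 3% at the summit (3.06% and 2.99%) and reach their highest values, 12.0% and 10.9%, at 200 bp from it.

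In each young library, measured from that library's own summits, the share with the motif within 300 bp was higher at young-only sites by 2.98, 2.91 and 5.33 percentage points for replicates 1, 2 and 3 (3.74 ± 1.38, SD, n = 3). It was higher within each quartile of peak strength as well, at 55.6% against 47.0% for the weakest and 67.2% against 63.7% for the strongest. The intervals of the groups overlapped, however, in all 4 quartiles. Within 50 bp the direction differed by quartile. From the weakest to the strongest, the shares at young-only and shared sites were 11.9% and 7.04%, 5.90% and 6.78%, 3.21% and 5.05%, and 4.48% and 3.85%. The split by class was unequal. At promoters 54.2% of young-only (47.3 to 60.9%) and 45.0% of shared sites (42.5 to 47.4%) had the motif, whereas farther from a TSS the shares were 61.1% (57.5 to 64.7%) and 64.5% (62.4 to 66.6%). With H3K27ac, 55.5% of young-only and 51.0% of shared sites had it, whereas without H3K27ac the shares were 62.7% and 67.1%. Within 300 bp the direction of the difference thus turned with the class. The higher share over all sites did not hold within distal sites or sites without H3K27ac. Within 50 bp young-only sites had the higher share in each split, with overlapping intervals. The shares were 7.87% and 4.22% at promoters and 7.80% and 6.49% at distal sites. They were 6.49% and 4.46% with H3K27ac and 8.85% and 7.76% without it.

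Other motifs of muscle and signalling factors were searched in the same windows on both strands. The E-box CAGCTG, bound by myogenic factors such as MyoD, was found at 41.4% of young-only sites and 39.2% of shared sites, against 23.8% in the windows 2 kb away from young-only sites, 29.9% at the TSSs and 42.1% at H3K27ac peaks without a JunB peak. It was thus no more frequent at young-only sites than at H3K27ac peaks without JunB. The TEAD motif ACATTCC was found at 12.4% and 10.2%. Motifs typical of CpG-rich promoters were rarer at young-only sites, of which 22.8% lay within 3 kb of a TSS, against 43.1% of shared sites. These motifs were not split by class, so their difference cannot be told apart from the unequal promoter share. The SP/KLF motif GGGGCGG was found at 6.76% of young-only and 19.1% of shared sites, the ETS motif CCGGAAG at 2.96% and 8.77%, and the NF-Y motif CCAATCA at 5.91% and 9.99%. The cyclic AMP response element (CRE) TGACGTCA was at 1.48% and 3.31%. At the TSSs of all protein-coding genes the SP/KLF motif was in 38.6% and the ETS motif in 15.9% of windows, and the CRE in 2.90%. A match is a stretch of letters and not a measured site of that factor. The RUNX motif TGTGGTT was in 12.6% of young-only sites and in 13.9% of the windows 2 kb away. The GATA motif AGATAA was in 22.9% of young-only sites, below the 31.0% of the windows 2 kb away. The CTCF core AGGGGGC or AGGTGGC was found at 16.4% of young-only and 21.1% of shared sites and the NF-κB motif at 6.97% and 9.50%. Shares were 9.19% and 7.76% for the FOX motif TGTTTAC, 2.53% and 2.66% for the STAT motif TTCCNGGAA, 2.43% and 3.55% for the SRF CArG box and 1.06% and 1.41% for the MEF2 motif.

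Young-only sites were weaker than shared sites in each young library. In young replicate 1 the fold enrichment of the peak over the local background of the same library had a median of 5.81 at 853 young-only sites and 7.89 at 3544 shared sites. In young replicate 2 the medians were 7.21 at 819 and 8.33 at 3436 sites, and in young replicate 3 they were 7.56 at 610 and 8.71 at 2853 sites. The distributions overlapped widely, since the values between the first and the last quartile boundary ran from 4.84 to 7.44 and from 5.81 to 10.9 in young replicate 1. Ranked by −log10 p within its library, the median young-only peak stood at the 58.5, 38.1 and 36.7 percentile in replicates 1, 2 and 3, and the median shared peak at the 78.1, 59.6 and 58.2 percentile. These strengths come from the lists that selected the sites and are given as a description. In a cell population, binding in fewer cells and weaker binding per cell cannot be told apart.

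**Figure D2:**
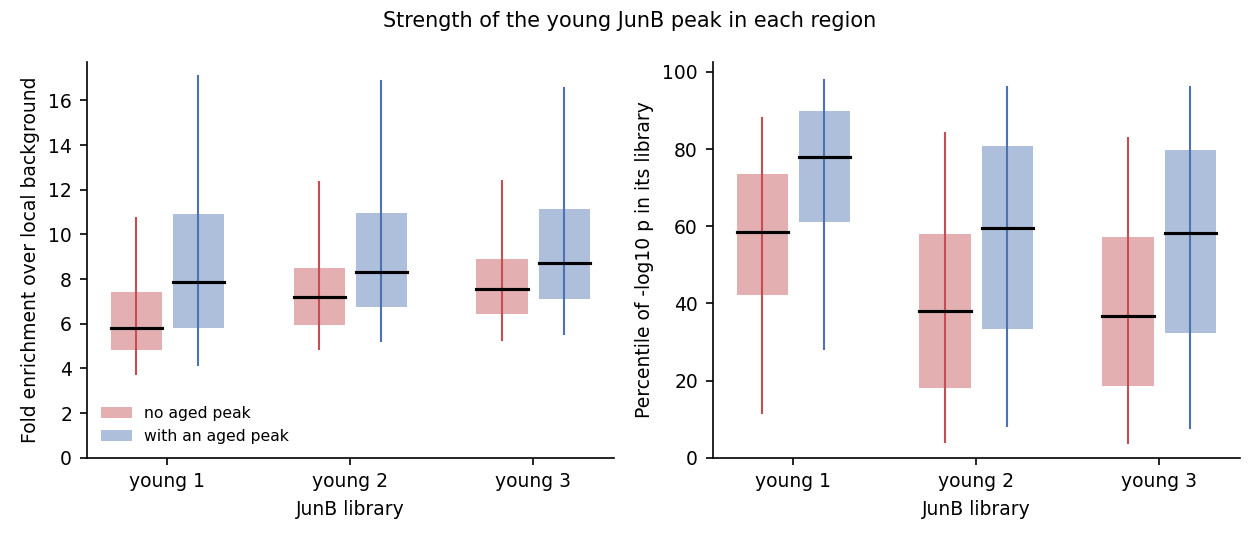
Fold enrichment over local background (left) and percentile of −log10 p within the library (right) of the strongest peak of each region in young replicates 1 to 3, for young-only (red) and shared (blue) sites. Boxes span the middle of the values from the first to the last quartile, black lines are medians and thin lines run from the 5th to the 95th percentile. The red medians (5.81, 7.21 and 7.56 fold) lie below the blue ones (7.89, 8.33 and 8.71 fold) in all 3 libraries.

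The share of reproducible young regions without an aged peak fell with strength. From the weakest to the strongest quartile of the 4632 regions, ranked by mean percentile, it was 35.0%, 24.9%, 16.1% and 5.79%. It also depended on how many young libraries held the site. Of 2851 regions with a peak in all 3 young libraries 388 had no aged peak (13.6%), compared with 337 of 1169 regions in replicates 1 and 2 (28.8%), 128 of 377 in replicates 1 and 3 (34.0%) and 94 of 235 in replicates 2 and 3 (40.0%). Hence 41.0% of young-only sites and 66.8% of shared sites were found in all 3 young libraries.

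The remaining young library gives a scale for missing peaks at one age. Of the 3086 regions with a peak in young replicates 2 and 3, replicate 1 held 92.4% and the aged library 84.4%. For the 3228 regions of replicates 1 and 3, replicate 2 held 88.3% and the aged library 84.0%. For the 4020 regions of replicates 1 and 2, however, replicate 3 held only 70.9% and the aged library 82.0%. The aged library thus missed fewer of these regions than young replicate 3 did, and more than replicates 1 and 2 did. The lists differ in length, from 3863 peaks in young replicate 3 to 14123 in the aged library, with 4884 and 9534 in replicates 2 and 1. They also differ in their lowest −log10 p, which was 3.01 in both the longest lists but 5.33 and 5.22 in young replicates 2 and 3. With 1 aged library, the spread between aged mice is unknown and no test between ages was made.

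Most young-only sites were far from any aged peak. The gap to the nearest aged peak had a median of 28318 bp and ran from 8 to 1263045 bp. It was at most 500 bp at 30 sites (3.17%) and at most 5000 bp at 140 sites (14.8%). The nearest to the limit was chr12:91746244-91746519, 8 bp from an aged peak and 160 bp from a TSS of Ston2, followed by an intronic site at a gap of 54 bp. Just outside, chr5:25184616-25185069 in an intron near Galntl5 shared 2 bp with an aged peak, and chr3:103789830-103790284, 791 bp from a TSS of Hipk1, shared 5 bp. Only 9 of the 3685 shared sites overlapped the aged peak by 50 bp or less.

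**Figure D3:**
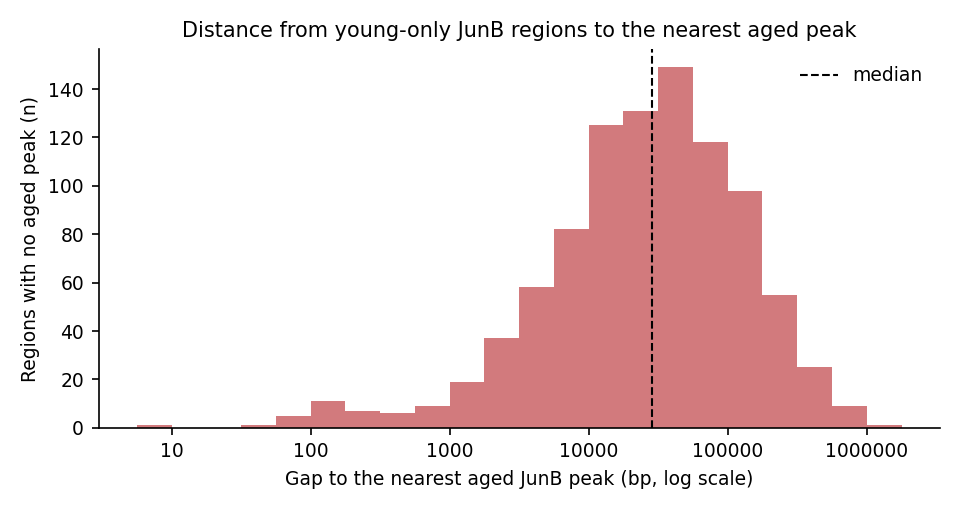
Number of young-only sites (n = 947) by the gap in bp to the nearest aged JunB peak, on a log scale, with the median as a dashed line. The median lies at 28318 bp, and only 30 sites have a gap of at most 500 bp.

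Young-only sites lay away from promoters more often than shared sites. A region within 3 kb of a TSS was classed as a promoter, which applied to 216 of 947 young-only sites (22.8%, 20.2 to 25.6%) and 1588 of 3685 shared sites (43.1%, 41.5 to 44.7%). Introns held 39.6% of young-only and 28.7% of shared sites, and intergenic sequence held 34.0% and 25.6%. Exons, 5′ UTRs, 3′ UTRs and the 300 bp downstream of genes held the remaining 21, 1, 11 and 1 young-only sites. A TSS itself was covered by 3.91% of young-only sites and 18.2% of shared sites. By library, the promoter share was lower at young-only sites by 19.9, 20.8 and 19.4 percentage points in young replicates 1, 2 and 3, and the mean of 22.3% ± 0.513 at young-only sites was below 42.3% ± 0.808 at shared sites (SD, n = 3 libraries that share most regions).

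H3K27ac overlapped fewer of the young-only sites. It covered part of 416 of 947 young-only sites (43.9%, 40.7 to 47.2%) and of 2513 of 3685 shared sites (68.2%, 66.7 to 69.7%). The gap was wider at promoters, with 44.9% of young-only and 76.2% of shared sites, than at distal regions, with 43.6% and 62.1%. In introns the shares were 45.3% and 59.0%, and in intergenic sequence 41.3% and 65.0%. Per library the H3K27ac share at young-only sites was 44.9%, 42.1% and 41.1% and that at shared sites 67.8%, 67.7% and 66.5%, and the mean difference was −24.6 ± 1.49 percentage points (SD, n = 3). The H3K27ac list was not used to select the sites. Whether it was made from young or aged cells is not given in the labels, and the study's methods also name an outside epigenome mapping project for H3K27ac data.

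**Figure D4:**
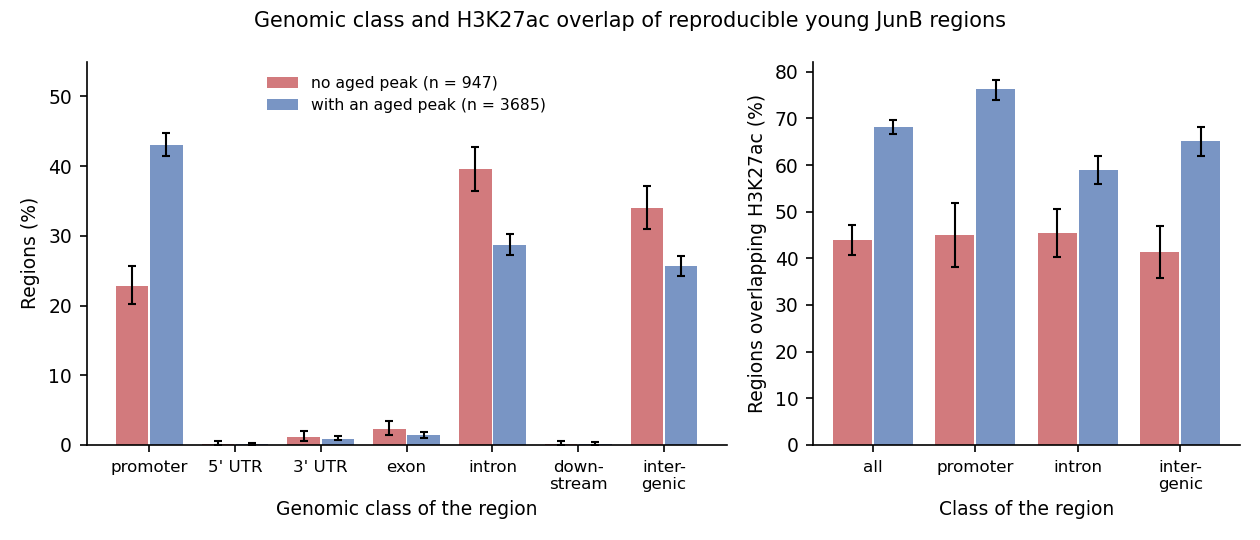
Left, share of regions (%) in each genomic class, and right, share of regions (%) overlapping an H3K27ac peak, for all regions and within classes. Bars are young-only (red) and shared (blue) sites, and error bars are exact 95% binomial intervals. Promoters hold 22.8% of young-only and 43.1% of shared sites, and H3K27ac overlaps 43.9% and 68.2%.

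The lower H3K27ac and promoter shares were present within each quartile of peak strength. H3K27ac overlapped 42.7%, 45.8%, 44.9% and 40.3% of young-only sites from the weakest to the strongest quartile, and 68.9%, 65.7%, 67.1% and 70.6% of shared sites. The promoter share was 24.2%, 18.8%, 23.0% and 31.3% at young-only sites and 49.7%, 45.2%, 42.0% and 37.9% at shared sites. In the strongest quartile, which held only 67 young-only sites, the promoter intervals overlapped (20.6 to 43.8% and 35.0 to 40.8%).

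**Figure D5:**
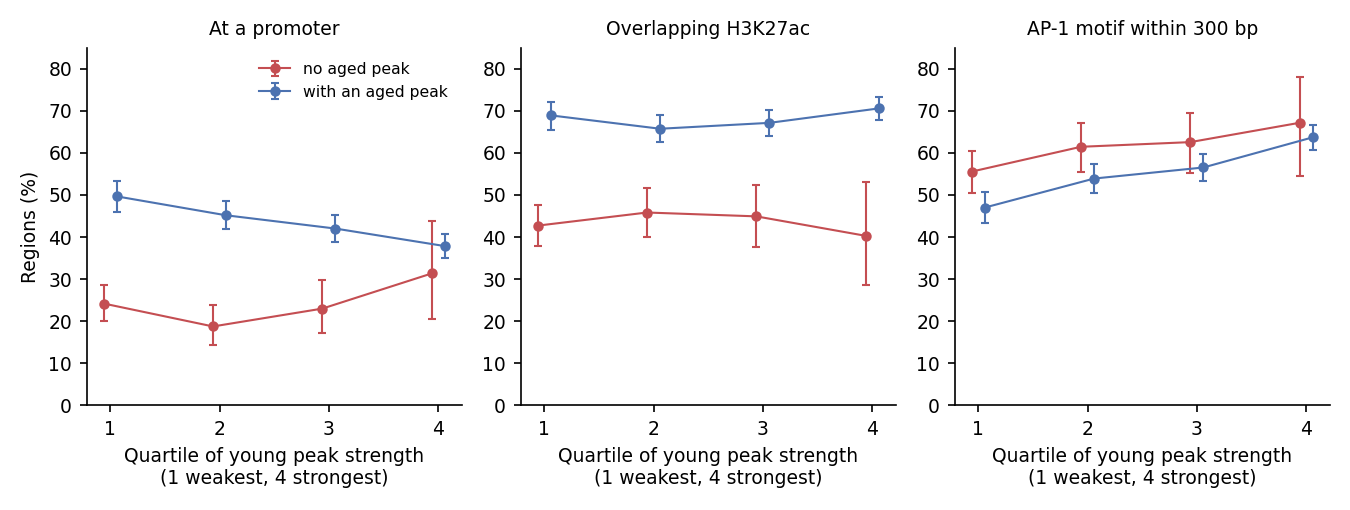
Share of regions (%) at a promoter, overlapping H3K27ac and with an AP-1 motif within 300 bp of the summit, by quartile of young peak strength (1 weakest, 4 strongest). Points are young-only (red) and shared (blue) sites with exact 95% binomial intervals. The H3K27ac share of young-only sites stays between 40.3 and 45.8%, below that of shared sites at 65.7 to 70.6%.

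Combined, 412 young-only sites (43.5%) were distal and without H3K27ac, compared with 21.5% of shared sites. A further 319 (33.7%) were distal with H3K27ac, 119 (12.6%) were promoters without it and 97 (10.2%) promoters with it. Among shared sites, promoters with H3K27ac made up 32.8%. The fold enrichment of the H3K27ac peak itself differed little, with a median of 3.67 at 416 young-only sites and 3.92 at 2513 shared sites. Of the 416 young-only sites with H3K27ac, 21 (5.05%) had an aged JunB peak elsewhere in the same H3K27ac peak. The selection excluded an aged peak over the site itself, and these H3K27ac peaks had a median width of 860.5 bp. Over all 947 young-only sites, 4.22% had an aged peak within 1000 bp. Young-only sites had a median GC content of 47.1% and a median width of 403 bp, against 50.1% and 513 bp at shared sites. Within promoters the GC medians were 48.5% and 54.1%, and at distal regions 46.7% and 47.8%.

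The cell type was checked on the H3K27ac list, in which 10921 of 21755 protein-coding genes had a peak within 3 kb of a TSS. Of 10 MuSC markers 7 had one (Vcam1, Itga7, Sdc4, Cd34, Chrdl2, Heyl and Fgfr4), whereas Pax7, Myf5 and Calcr had none. The markers of other cell types with such a peak were 4 of 8 for endothelial cells, 3 of 8 for fibro-adipogenic progenitors, 1 of 8 for leukocytes, 4 of 8 for smooth muscle and pericytes and 4 of 8 for myofibres. Among young-only sites, 4 MuSC markers were the nearest gene of at least 1 site, and 0 of the 40 markers of the other 5 cell types were, where 3.75% of all protein-coding genes were nearest to a young-only site. Shared sites were nearest to 4 of 10 MuSC markers, 3 of 8 endothelial, 3 of 8 progenitor, 1 of 8 leukocyte, 1 of 8 smooth muscle and 2 of 8 myofibre markers, against 12.4% of all protein-coding genes.

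Pax7, the transcription factor that marks MuSCs and maintains them, was nearest to 4 young-only sites and to 0 shared sites. The intronic site at chr4:139751685-139752025 overlapped H3K27ac and had a fold enrichment of 5.93, 5.15 and 6.66 in young replicates 1, 2 and 3. Its AP-1 motif is printed above as the first Pax7 line. A site at chr4:139841138-139841597, 7610 bp from the TSS, was also found in all 3 libraries, with 3.68, 6.20 and 6.05 fold. The remaining pair were intronic sites of replicates 1 and 2 (2.19 and 3.25 fold) and of replicates 2 and 3 (4.83 and 5.27 fold). The nearest aged peak to these 4 sites lay between 3513 and 65731 bp away, and 1 aged peak elsewhere was linked to Pax7, so the gene did not lack aged JunB peaks altogether.

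The strongest young-only sites were mostly distal, as were young-only sites in general. By the mean percentile of −log10 p over 3 libraries, 8 of the top 10 were distal, 4 overlapped H3K27ac and 7 had the AP-1 motif within 300 bp. Over all 947 young-only sites these shares were 77.2%, 43.9% and 59.6%. The highest fold enrichment in young replicates 1 and 2 was at chr13:69447308-69447829, 84603 bp from the TSS of Tent4a, with 22.4, 22.2 and 20.7 in young replicates 1, 2 and 3 and an aged peak no nearer than 58549 bp. A site 5809 bp from the TSS of Prdx1, which encodes a peroxiredoxin that removes peroxides, had 19.1, 19.2 and 21.3 fold and overlapped H3K27ac. An intronic site nearest to Uts2, the gene of urotensin 2, had 18.0, 19.9 and 19.5 fold without H3K27ac. An intron of Reps1 held a site with 11.7, 19.4 and 21.4 fold, without H3K27ac and without the AP-1 motif. The 3 young libraries were alike at Tent4a, Prdx1 and Uts2, and replicate 1 was the lowest at Reps1.

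The site near Tas1r2, second by mean percentile, had 10.2, 11.2 and 14.1 fold. Lower in the ranking were sites near Rabggta (15.4, 15.2 and 14.7 fold), Atp6ap1l (13.6, 14.6 and 14.8 fold) and Cd82 (10.4, 13.1 and 15.2 fold). The site that ranked first by −log10 p lay on chromosome 9 at 3029580 to 3029944, 385 bp from a TSS of Gm10717, but its fold enrichment was only 4.65, 2.88 and 2.79 and 97.3% of its bases were annotated as repeats. It is therefore uncertain. Over all young-only sites, 3.91% were repeats over more than 50% of their length, compared with 3.28% of shared sites.

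At promoters with H3K27ac, the strongest young-only sites reached at most 13.9 fold. Plk3, encoding a stress-responsive kinase, had a site 2430 bp from its TSS with 7.77, 11.4 and 13.9 fold. Chrna1, the muscle subunit of the acetylcholine receptor, had a site over a TSS with 8.02, 6.94 and 7.84 fold and an aged peak 4551 bp away. Shroom3, a regulator of apical constriction, also had a site over a TSS, with 10.7, 7.93 and 8.22 fold and an aged peak no nearer than 141379 bp. Values for Ap1b1, Pmepa1, Alpl, Arhgef19, Daam1 and Sema6d lay between 5.33 and 11.9 fold in all libraries. Alpl, the gene of tissue-nonspecific alkaline phosphatase, was linked to 2 young-only promoter sites and to 0 aged peaks.

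Among distal sites with H3K27ac, the site 53173 bp from Creb5, which encodes a bZIP factor related to AP-1, had 9.43, 14.4 and 13.8 fold and 2 copies of the motif. An intron of Myo5a held a site with 11.2, 16.9 and 11.1 fold. The H3K27ac enrichment was highest, at 7.87 fold, for the site 17838 bp from Dmrt2, a regulator of somite and muscle development, which had 12.4, 12.3 and 10.8 fold for JunB. Sites near Asb4, 4930452B06Rik and Hs3st4 had between 8.31 and 15.4 fold. All these sites were found in each of the 3 young libraries by the rule that named them.

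Sites were linked to genes when a TSS lay within 3 kb or, for a distal site with H3K27ac, when the TSS was the nearest. This linked 535 of 947 young-only sites to 563 genes, of which 302 were protein-coding (1.39% of 21755 protein-coding genes). Promoter sites linked 256 genes and distal sites 313. Of the 563 genes 234 (41.6%) were also linked to an aged peak elsewhere, and 329 had no aged link. The share of all genes with an aged link is not given here, so 41.6% cannot be called high or low. The 41.6% became 12.0% when each list was held to its 2000 strongest peaks. A shared site was linked to 124 of the 563 genes (22.0%). Linkage to more than 1 young-only site was seen for 16 genes, at most 3 per gene. Odc1, encoding the first enzyme of polyamine synthesis, and Rxfp1, a receptor for relaxin, each had 1 promoter and 1 distal site and no aged link.

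By nearest protein-coding TSS regardless of distance and H3K27ac, young-only sites fell to 815 genes (3.75% of 21755) and shared sites to 2704 genes (12.4%). Of the 815 genes 717 had 1 site. Tet2, a DNA demethylase, had 5 young-only sites and 1 shared site. Ampd3, Camta1, Pde4b, Pde4d, Rbms3 and Wdr70 had 4 each beside Pax7. Creb3l1, Epb41l3 and Map2 had 3 each and 0 shared sites. These genes were picked for their counts.

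Genes of MuSC quiescence were compared with other gene lists, which were chosen with earlier results of these data known. Of 35 genes of quiescence, 10 were nearest to a young-only site (28.6%, against 3.75% of all protein-coding genes) and 15 to a shared site (42.9%, against 12.4%). The 10 were Pax7, Chrdl2, Fgfr4, Heyl, Cdkn1c, Gpx3, Itgb1, Met, Ncam1 and Notch1, and 7 of them had no shared site, which held for 464 of the 815 genes nearest to a young-only site. Heyl, a target of Notch signalling, had a site of replicates 1 and 2 with 6.55 and 6.02 fold at 7424 bp from its TSS. The site 15175 bp from Notch1 was in all 3 libraries (5.30, 8.82 and 8.68 fold), with an aged peak 369 bp away. Met, the receptor of hepatocyte growth factor, had an intronic site with 4.57, 8.59 and 7.30 fold and was linked to 3 aged peaks. By the stricter link, 4 of 35 genes were linked (Pax7, Chrdl2, Itgb1 and Gpx3), 2 of them with an aged link.

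Immediate-early and stress genes, which respond within minutes to growth factors and damage, were nearest to a young-only site in 10 of 33 cases (30.3%, against 3.75% of all protein-coding genes) and to a shared site in 18 (54.5%, against 12.4%). Gadd45a, a DNA damage response gene, was nearest to a site with H3K27ac 49056 bp from its TSS, at 5.40, 8.51 and 11.2 fold, and Gadd45g to a site 115917 bp away, at 7.06, 9.13 and 7.59 fold. Neither gene was linked to its site by the stricter rule. The site 28388 bp from Sgk1, a serum- and glucocorticoid-induced kinase, had 5.95, 6.68 and 6.84 fold. Myc was nearest to 3 young-only and 8 shared sites, and Zfp36l1 to 3 and 3. By the stricter link 1 gene of this list (3.03%, against 1.39% of all protein-coding genes), Ccn1, was linked. Of 21 genes of the AP-1 family itself, 3 were nearest to a young-only site (14.3%: Atf3, Jdp2 and Mafk) and 10 to a shared site (47.6%).

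Genes of the senescence-associated secretory phenotype (SASP), the cytokines, growth factors and proteases that senescent cells release, were nearest to a young-only site in 10 of 114 cases (8.77%, against 3.75% of all protein-coding genes) and to a shared site in 26 (22.8%, against 12.4%). Linked to young-only sites were 4 of 114 (3.51%, against 1.39%), namely Tnfrsf1b, Ntf3, Bmp4 and Gdf15, and all 4 were also linked to an aged peak elsewhere. Plau and Col12a1, which the study names as SASP genes of human muscle cells, are not among the 114. Each was linked to 1 young-only promoter site, 2291 and 1127 bp from a TSS, and to 1 aged peak. Ntf3, the gene of neurotrophin 3, was linked to the strongest of these sites, 129091 bp from its TSS, with 10.5, 11.6 and 11.8 fold. That site overlapped H3K27ac and had an aged peak 1237 bp away. It was classed as intronic, which does not say in which gene. Gdf15, a stress-induced cytokine, had a promoter site with 4.57 and 6.42 fold in replicates 1 and 3, H3K27ac and an aged peak 3732 bp away. The site of Tnfrsf1b was weak, with 3.65 and 5.23 fold. Over the whole SASP list 35 of 114 genes were linked to an aged peak, and the same share over all genes is not given here.

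The other lists were nearest to young-only sites at 4 of 24 Notch pathway genes, 3 of 16 MAPK feedback genes, 5 of 33 TGF-β and BMP genes and 5 of 39 matrix and adhesion genes. The counts were 4 of 25 for cytoskeleton and SRF genes, 3 of 22 for circadian genes, 2 of 22 for myogenic factors, 2 of 27 for cell cycle and senescence genes, 2 of 26 for ER stress genes, 2 of 31 for autophagy genes, 2 of 33 for Wnt genes, 1 of 20 for Hippo and TEAD genes and 1 of 16 for NF-κB genes. Against 3.75% of all protein-coding genes, these shares ran up to 18.8% (MAPK feedback). Nearest to 3.75% were Hippo and TEAD genes at 5%, Wnt genes at 6.06%, NF-κB genes at 6.25% and autophagy genes at 6.45%. In every one of these lists more genes were nearest to a shared than to a young-only site. Shared sites were also more numerous (3685 against 947), and whether this accounts for the counts was not tested. Adam17, the protease that releases Notch and TNF ligands, had an intronic site with 17.0, 9.64 and 7.35 fold, and Smad5, which carries BMP signals, had a site with 7.47, 11.0 and 5.78 fold. An AP-1 motif within 300 bp was present at both. Lists share genes, and a nearest TSS does not show that a site acts on that gene.

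The young-only sites were spread over all 20 chromosomes, from 17 on X to 76 on chromosome 4. The share of reproducible young regions without an aged peak ran from 15.0% on chromosome 7 to 27.4% on X, where it rested on 62 regions (16.9 to 40.2%).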

How the data were processed

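JunB and H3K27ac CUT&RUN-seq lists of mouse MuSCs were used (3 young, 1 aged, 1 H3K27ac), grouped by the GEO labels. The authors aligned reads to mm10 with Bowtie2 and called peaks per library with MACS2, whose versions are not given in the sources used here. The deposited lists give each peak's fold enrichment (a ratio to local background), the −log10 of its p and q values, and a score from the authors' caller, which was not used. Depth behind a peak is unknown, so shares have only 95% exact binomial intervals.

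Regions were merged, compared by 1 bp overlap, and classified with GENCODE M21. Summits are those of the young peak with the highest −log10 p. AP-1 was sought in RefSeq's GRCm38.p6 sequence. Young libraries gave the spread (SD) of shares. Members and lists were chosen with earlier results of these data known. Named were the 10 sites with the highest mean percentile in all 3 young libraries, the 10 such at protein-coding promoters with H3K27ac, the 10 such distal with H3K27ac, the listed genes and the sites nearest the limit. One distal site is not reported here. Other names were chosen after their values were seen. The SASP list was taken from the study but lacks some SASP genes that the study names in human muscle cells, such as Plau and Col12a1. Python 3.11.15, numpy 2.4.6, scipy 1.17.1 and matplotlib 3.10.9 were used, and merging and overlap were checked against bedtools 2.31.1 on simulated intervals, as was the motif scan on simulated sequence. Alternatives are given with the limits.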

Additional observations from a re-analysis of the deposited data

How the results depend on the processing

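No difference between young-only and shared sites changed direction under the alternatives computed. Counts and plain shares have no direction and could only move. Splits by class and by quartile of strength were not among the alternatives. As given above, the AP-1 difference within 300 bp turned with the class and that within 50 bp turned with the quartile. Of all 118 alternatives, 61 stayed within 1 SD of the young libraries or, for counts, within 1.5 times, and 57 moved. No paired analysis was possible because the aged and H3K27ac groups had 1 library each. Leaving out each young library in turn gave 486 to 726 young-only sites, 15.7 to 18.1% without an aged peak, 41.2 to 45.5% with H3K27ac (difference −27.2 to −23.3 points), 21.4 to 22.8% at promoters (−20.1 to −18.5), 6.38 to 7.72% with AP-1 within 50 bp (0.688 to 1.99), 270 to 438 genes and 37.8 to 43.2% also linked by an aged peak. Without replicates 1 and 2 the counts fell by over 1.5 times, to 486 and 518 sites and 270 and 312 genes.

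Requiring all 3 young libraries left 388 sites, 13.6% without an aged peak, 21.6% promoters (−19.3), 6.44% with AP-1 (1.003), 227 genes and 38.8% aged-linked. The 2000 strongest peaks per library gave 39.0% without an aged peak, H3K27ac 56.6% (−18.1), promoters 28.9% (−15.8), AP-1 5.73% and 12.0% aged-linked. A common lowest −log10 p of 5.33 gave 23.5%, H3K27ac 46.5% (−22.1), a promoter difference of −21.2, an AP-1 difference of 2.95 and 37.8% aged-linked, and a −log10 q of at least 2 gave 21.9%, H3K27ac 46.0% (−22.2) and a promoter difference of −21.2. With no aged peak within 500 bp, promoters were 22.0% (−21.1) and 38.5% of genes were aged-linked. Keeping H3K27ac peaks above their median −log10 p gave 25.3% (−22.2), and regions covered by H3K27ac over at least 50% of their length 37.1% (−22.6). A 1 kb promoter window gave 12.5% (−21.7) and protein-coding TSSs 16.1%. AP-1 within 100 bp gave 18.5% (3.72), and within 300 bp, added after seeing the data, 59.6% (3.46). Linking by the same rule with only the TSSs of protein-coding genes gave 475 genes, 59.2% aged-linked. Linking distal sites with H3K27ac to all TSSs within 50 kb gave 1001 genes, 46.2% aged-linked. Leaving out regions over 50% repeats, also added after seeing the data, moved none of the 10 results. The causes were not tested. With 1 aged library and unequal lists, a missing aged peak is not a measured absence of binding.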
